A study of Mus musculus with 8 samples.

Results

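The genes described here encode secreted peptides and secretory proteins of gut endocrine cells, islet cells and neurons, and were followed across 3 sorted populations of thymic epithelial cells (TECs) at embryonic day 17 (E17). They are Gcg, Sst, Cck, Ghrl, Calca and Npy, which encode peptide precursors, Chgb, Scg2 and Scg5, which encode granin-type proteins of the secretory granule, and Dbh, which encodes an enzyme of noradrenaline synthesis. The 10 members were found by gene symbol among the 55450 genes of the table, and each symbol matched 1 gene. They had been selected on measured levels in these same libraries, so their levels and differences are given as a description.

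The cells came from mouse embryos that carried 1 Ccl21a-tdTomato knock-in allele and the Tnfrsf11a(RANK)-Venus transgene, and all 3 groups shared both reporters. CD45-EpCAM+ cells were sorted by reporter fluorescence into CCL21+RANK- TECs (3 libraries), CCL21-RANK+ TECs (3 libraries) and CCL21-RANK- TECs (2 libraries). They are called CCL21+ TECs, RANK+ TECs and reporter-negative TECs from here on. Venus and tdTomato report the activity of regulatory sequence and not the proteins themselves, and the number of embryos behind a library is not given in the sources used here. The 8 libraries held between 42751839 and 71625282 expected counts. Levels are given as RPKM, which scales the counts of a gene by its exon length and by the total of the library and can be compared between genes.

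The labels were checked against the reporter genes. Tnfrsf11a, which encodes RANK, was 104 ± 9.37 RPKM (SD, n = 3) in RANK+ TECs, 9.5 ± 0.75 (n = 3) in CCL21+ TECs and 2.44 ± 0.258 (n = 2) in reporter-negative TECs. Ccl21a was 404 ± 137 RPKM in CCL21+ TECs, 109 ± 38.4 in RANK+ TECs and 7.88 ± 1.41 in reporter-negative TECs, so the population sorted as CCL21-RANK+ still held Ccl21a transcripts. Near-identical copies of Ccl21a exist in the mouse genome, which makes its own level uncertain. Epcam was detected at 133 ± 19.8 RPKM in RANK+ TECs, 59.6 ± 16.7 in CCL21+ TECs and 72.7 ± 15.6 in reporter-negative TECs.

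Regulated secretion of peptides follows a common route. A precursor enters the dense-core granule with granins, is cut by prohormone convertases, is trimmed and often amidated, and is released when the granule fuses with the membrane. In the thymus, peptide genes of this kind are known as tissue-restricted antigens: medullary TECs transcribe them at low level, in part under the control of Aire, and some medullary TECs take on features of endocrine cells. Aire itself was 113 ± 18.4 RPKM (SD, n = 3) in RANK+ TECs, 0.747 ± 0.1 in CCL21+ TECs and 0.465 ± 0.488 (n = 2) in reporter-negative TECs.

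As a whole the set was most abundant in RANK+ TECs. The summed level of the 10 members was 74.6, 19.5 and 22.3 RPKM in the 3 RANK+ libraries, 6.5, 5.54 and 5.24 RPKM in the CCL21+ libraries, and 1.09 and 1.01 RPKM in the reporter-negative libraries. Calca was the most abundant member in each RANK+ library, at 37.8%, 39% and 33.5% of the sum. In CCL21+ TECs the leading member was Scg5 in replicate 1 and Cck in replicates 2 and 3. In sorted bulk RNA, fewer cells of a type and less RNA per cell cannot be told apart.

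**Figure D1:**
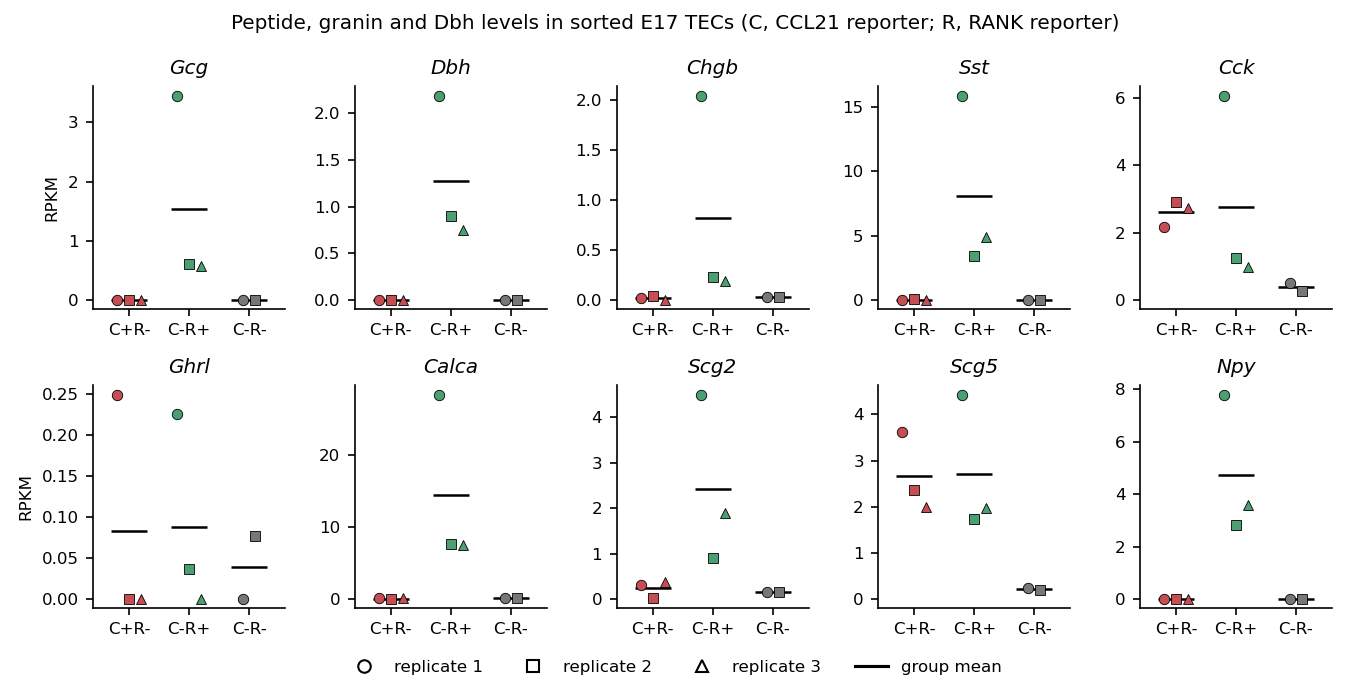
RPKM of each of the 10 genes (vertical axes, each with its own scale) in the 8 libraries, with C for the CCL21 reporter and R for the RANK reporter. Points are libraries, with the replicate given by the symbol, and bars are group means. Sst, Calca and Npy are near 0 outside RANK+ TECs, whereas Cck and Scg5 are also read in CCL21+ TECs, and replicate 1 is the highest RANK+ library in every panel.

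In 7 members, Gcg, Dbh, Chgb, Sst, Calca, Scg2 and Npy, every RANK+ library lay above every library of the other populations, a pattern held by 30.5% of the 21451 genes tested. In Cck and Scg5 the RANK+ and CCL21+ libraries overlapped, and both groups lay above reporter-negative TECs without overlap. Ghrl overlapped among all 3 populations. Under the call used here (adjusted p under 0.05 in edgeR's quasi-likelihood test over all genes, fold change over 1.5 and mean RPKM over 1 in the higher group), 6 members were called higher in RANK+ than in CCL21+ TECs, where 15.4% of all genes tested were, and 0 were called higher in CCL21+ TECs, where 15.4% of all genes were, nor did any pass an unadjusted p under 0.05 in edgeR or the call in DESeq2 in that direction. Against reporter-negative TECs, 8 members were called higher in RANK+ TECs (14.4% of all genes; 15.1% were called lower), and 1 member, Scg5, was called higher in CCL21+ TECs (4.35% of all genes; 3.66% were called lower). Cck joined Scg5 there under DESeq2's Wald test and some other settings. Because the members were selected on these levels, nothing is read from these counts. All 10 members passed the filter on low counts. For most members the passing libraries were those of the population in which they were high.

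Sst encodes somatostatin, an inhibitory peptide of gut D cells, islet delta cells and neurons. It lies at chr16:23889573-23890958 (GRCm38, minus strand). Its level in RANK+ TECs was 15.8, 3.43 and 4.87 RPKM, from 653, 124 and 150 counts. A single CCL21+ library held 3 Sst counts, and the remaining libraries of CCL21+ and reporter-negative TECs held 0. The ratio of pooled counts per total between RANK+ and CCL21+ TECs was 331, with a 95% exact counting interval from 113 to 1607, and Sst was at least 134-fold higher than in reporter-negative TECs when each library at 0 was given the floor of 3 counts. The ratio was 158 (53.5 to 771) and the bound 69.3-fold without replicate 1 of RANK+ TECs. Such intervals and floors cover counting error only.

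Calca encodes calcitonin and, by alternative splicing, the sensory neuropeptide CGRP. The counts are per gene and cannot separate these transcripts. Calca lies at chr7:114631478-114636357 (GRCm38, minus strand). It was read at 28.2, 7.61 and 7.46 RPKM in RANK+ TECs, at 0.119, 0.0904 and 0.14 RPKM in CCL21+ TECs, and at 0.132 and 0.249 RPKM in reporter-negative TECs. The lowest RANK+ library was thus well above every other library. The log2 difference was -6.78 ± 0.61 (SE) for CCL21+ minus RANK+ TECs and 6.09 ± 0.69 for RANK+ minus reporter-negative TECs. Its paralog Calcb, which encodes a second CGRP and is not among the members, was higher still in the same libraries, at 130, 75.1 and 79.2 RPKM, and no other library passed 0.446 RPKM. Per exon length, Calcb exceeded Calca 4.62-fold, 9.86-fold and 10.6-fold in the 3 RANK+ libraries. The paralogs can share reads, and the expected count of each had no decimal part in all but 1 library.

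Gcg encodes proglucagon, the precursor of glucagon in islet alpha cells and of glucagon-like peptides in gut L cells. It lies at chr2:62474530-62483650 (GRCm38, minus strand). Its counts were 294, 45 and 37 in RANK+ TECs and 0 in all 5 other libraries. This placed Gcg at 3.44, 0.601 and 0.579 RPKM and at least 40.6-fold above CCL21+ TECs and 53.2-fold above reporter-negative TECs. These bounds were 15.6-fold and 20.4-fold without replicate 1 of RANK+ TECs. A count of 3 would have corresponded to 0.0336, 0.0436 and 0.0364 RPKM in the CCL21+ libraries, so a lower level there was not detectable at this depth.

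Npy encodes neuropeptide Y, which is made by sympathetic and central neurons and by some endocrine cells. It lies at chr6:49822710-49829507 (GRCm38, plus strand). It was read at 7.77, 2.82 and 3.6 RPKM in RANK+ TECs, from 252, 80 and 87 counts. No other library held more than 1 Npy count. The ratio of pooled counts per total was 449 over CCL21+ TECs (95% exact counting interval 80.1 to 17761) and 194 over reporter-negative TECs (53.4 to 1607). These ratios were 289 (51.2 to 11485) and 125 (34.1 to 1041) without replicate 1 of RANK+ TECs.

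Dbh encodes dopamine beta-hydroxylase, which turns dopamine into noradrenaline inside the vesicle. It lies at chr2:27165233-27183200 (GRCm38, plus strand). Counts were 336, 121 and 86 in RANK+ TECs, equal to 2.18, 0.896 and 0.747 RPKM, and 0 in all other libraries. Dbh was therefore at least 60.6-fold above CCL21+ TECs and 79.4-fold above reporter-negative TECs, or 39.1-fold and 51.2-fold without replicate 1 of RANK+ TECs.

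Chgb and Scg2 encode chromogranin B and secretogranin II, acidic proteins that help to build the dense-core granule. Chgb lies at chr2:132781278-132795079 (plus strand) and Scg2 at chr1:79434669-79440120 (minus strand; GRCm38). Chgb was 2.04, 0.233 and 0.188 RPKM in RANK+ TECs and at most 0.0397 RPKM elsewhere. Its mean in RANK+ TECs, 0.82 ± 1.06 RPKM (SD, n = 3), rested on replicate 1 and did not reach 1 RPKM. Scg2 was 4.48, 0.912 and 1.9 RPKM in RANK+ TECs, 0.306, 0.0346 and 0.375 RPKM in CCL21+ TECs, and 0.153 and 0.167 RPKM in reporter-negative TECs. The groups of Scg2 did not overlap between RANK+ TECs and the rest, with a log2 difference of 3.77 ± 0.91 (SE) over reporter-negative TECs and of -3.22 ± 0.75 for CCL21+ minus RANK+. For Chgb the same differences were 4.49 ± 1.37 and -5.20 ± 1.23.

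Scg5 and Cck had a different order. Scg5 encodes the chaperone 7B2, which holds the convertase PC2 in an inactive form until it reaches the granule, and Cck encodes cholecystokinin, a peptide of gut I cells and of neurons. Scg5 lies at chr2:113776362-113829121 and Cck at chr9:121489824-121495694 (GRCm38, both on the minus strand). Scg5 was 3.62, 2.37 and 2 RPKM in CCL21+ TECs, 4.42, 1.74 and 1.98 RPKM in RANK+ TECs, and 0.236 and 0.196 RPKM in reporter-negative TECs. The reporter-positive populations overlapped, with a log2 difference of 0.12 ± 0.40 (SE), and each lay above reporter-negative TECs, by 3.62 ± 0.54 for CCL21+ and 3.50 ± 0.54 for RANK+ TECs. Cck was 2.16, 2.92 and 2.72 RPKM in CCL21+ TECs, 6.06, 1.25 and 0.968 RPKM in RANK+ TECs, and 0.511 and 0.267 RPKM in reporter-negative TECs. The group means of Cck in the reporter-positive populations were close, 2.6 ± 0.394 and 2.76 ± 2.86 RPKM, because a single RANK+ library lay above the CCL21+ range and the remaining libraries lay below it. When each library was left out in turn, the log2 difference of Cck between them ran from -0.38 to 1.30, and that of Scg5 from -0.16 to 0.60.

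Ghrl encodes ghrelin, the appetite peptide of gastric X/A-like cells. It lies at chr6:113716119-113719880 (GRCm38, minus strand) and overlaps the antisense gene Gm26982 and the gene Gm44033 on the opposite strand. It was the least abundant member in RANK+ TECs, with 16, 0 and 0 counts in CCL21+ TECs, 14, 2 and 0 in RANK+ TECs, and 0 and 6 in reporter-negative TECs. No library passed 0.248 RPKM, and no order of the populations can be given for this gene. Mboat4, the acyltransferase that activates ghrelin, did not pass the filter on low counts and was at most 0.105 RPKM in any library.

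RefSeq promoters (GRCm38.p6; 250 bases before to 50 after the annotated start) were found for all 10 members, with 13 promoters in all because Ghrl had several. The palindromic cyclic AMP response element TGACGTCA, searched on both strands, was present in the promoters of 3 members, Sst, Chgb and Scg2, and in 1.79% of all 32851 promoters. Its shorter core TGACG, searched on both strands and contained in the palindrome, was present in 7 members (Calca, Cck, Chgb, Dbh, Scg2, Scg5 and Sst) and in 20.8% of all promoters. The TATA motif TATAAA, searched on the strand of the gene, was found in Gcg and in 8.32% of all promoters, and the E-box CAGCTG, which reads the same on both strands, in Calca, Chgb and Ghrl and in 16.3% of all promoters. Stretches from 100 bases before to 50 bases after the start are shown 5' to 3' on the strand of the gene. They are given for the 3 members with the palindrome and for Calca, the most abundant member in RANK+ TECs. Capitals mark the palindrome, or in Calca the shorter core. The positions are chr16:23890795-23890944 (minus strand) for Sst, chr2:132781542-132781691 (plus) for Chgb, chr1:79439977-79440126 (minus) for Scg2 and chr7:114636308-114636457 (minus) for Calca.
Sst: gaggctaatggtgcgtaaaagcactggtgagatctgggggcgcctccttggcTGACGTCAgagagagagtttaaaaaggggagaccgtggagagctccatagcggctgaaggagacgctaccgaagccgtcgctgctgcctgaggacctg
Chgb: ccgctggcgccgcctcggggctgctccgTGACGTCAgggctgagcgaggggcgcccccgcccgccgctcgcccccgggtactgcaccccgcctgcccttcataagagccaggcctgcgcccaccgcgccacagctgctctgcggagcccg
Scg2: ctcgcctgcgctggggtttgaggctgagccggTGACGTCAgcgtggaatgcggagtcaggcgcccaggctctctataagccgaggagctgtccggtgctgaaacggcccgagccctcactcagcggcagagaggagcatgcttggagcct
Calca: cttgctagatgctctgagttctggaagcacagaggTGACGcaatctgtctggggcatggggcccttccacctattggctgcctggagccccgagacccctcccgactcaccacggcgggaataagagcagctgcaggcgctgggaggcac
The palindrome began 48 bases before the start in Sst, at -48, and at -72 in Chgb and -68 in Scg2, and the core in Calca began at -65. These matches describe the letters in the window and were not tested for binding.

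The members differed among replicates more than most genes did. Replicate 1 of RANK+ TECs held the highest level of each of the 10 members, from 2.37 times the mean of replicates 2 and 3 for Scg5 to 9.69 times for Chgb and 12.3 times for Ghrl. Among 12732 genes with a mean over 1 RPKM in this population, the ratio had a median of 1.04, with 0.673 and 2.43 as its 5th and 95th percentiles, and it passed 2 in 7.86% of them. For the 8 members above 1 RPKM the median was 3.47 and all 8 passed 2. That mean includes replicate 1, so a high replicate 1 helps a gene to enter. Gcg and Dbh, for example, had means under 1 RPKM in replicates 2 and 3. The members and the other genes were not matched for level, so these shares are a description. For the medullary regulators Aire and Fezf2 the ratio was 1.26 and 1.29, for Tnfrsf11a 1.11, for the epithelial genes Epcam and Foxn1 1.28 and 1.03, and for Ccl21a 1.74. The depth of replicate 1, 57286762 counts, lay within the range of the other libraries. Without this library the members called higher in RANK+ TECs numbered 4 in place of 6 against CCL21+ TECs (Sst, Calca, Scg2 and Npy), and 1, Cck, was then called higher in CCL21+ TECs. Against reporter-negative TECs they numbered 6 in place of 8, with Gcg and Dbh no longer called because their means, 0.59 and 0.822 RPKM in replicates 2 and 3, were under 1 RPKM. Their fitted log2 differences were then 8.58 and 9.91, which depend on the prior count because the other populations were at 0.

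**Figure D2:**
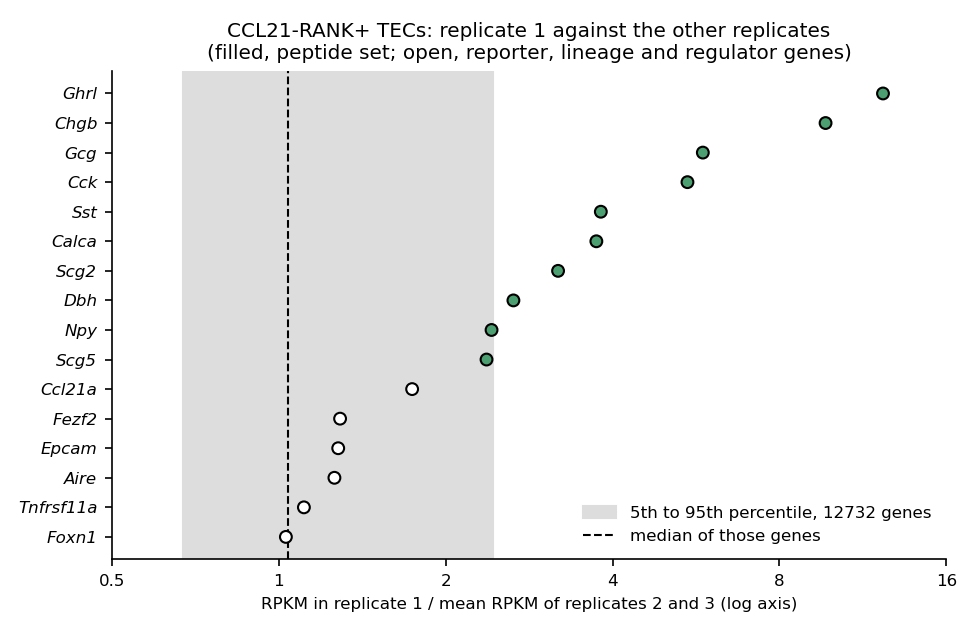
Level in replicate 1 of RANK+ TECs divided by the mean of replicates 2 and 3 (horizontal log axis) for the 10 members (filled) and 6 reporter, lineage and regulator genes (open). The grey band is the 5th to 95th percentile of 12732 genes, 0.673 to 2.43, and the dashed line their median, 1.04; 8 members lie beyond the band, and Npy at 2.42 and Scg5 at 2.37 lie just inside it.

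The other genes of peptide secretion were taken from 8 lists with 124 genes, of which 110 passed the filter on low counts. These lists hold none of the members, but they were drawn up with earlier results of these data known. Between CCL21+ and RANK+ TECs, 26 of the 110 genes had 0 counts in a whole group, against 1422 of all 21451 genes. Such genes passed the filter through the libraries of other populations. The shares below are therefore a description. In RANK+ against CCL21+ TECs, 42 were called higher (38.2% of those tested, against 15.4% of all genes) and 12 lower (10.9%, against 15.4%). Against reporter-negative TECs, 42 were higher in RANK+ TECs (38.2%, against 14.4% of all genes) and 5 lower (4.55%, against 15.1%). The median log2 difference over the lists for CCL21+ minus RANK+ was -4.12, or -3.12 with genes at 0 in a whole group held at their bound, against -0.11 for all genes. Without replicate 1 of RANK+ TECs, 31 genes were called higher in RANK+ TECs in each of these comparisons, and all 31 were among the 42. Those called lower than in CCL21+ TECs then numbered 15 in place of 12. Those called lower than in reporter-negative TECs numbered 7 in place of 5. CCL21+ and reporter-negative TECs were closer, with 10 genes higher in CCL21+ TECs (9.09%, against 4.35% of all genes) and 3 higher in reporter-negative TECs (2.73%, against 3.66%). These comparisons share libraries, and each gives its own values. Between CCL21+ and RANK+ TECs, the share of all genes beside each list below is 15.4% in either direction.

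**Figure D3:**
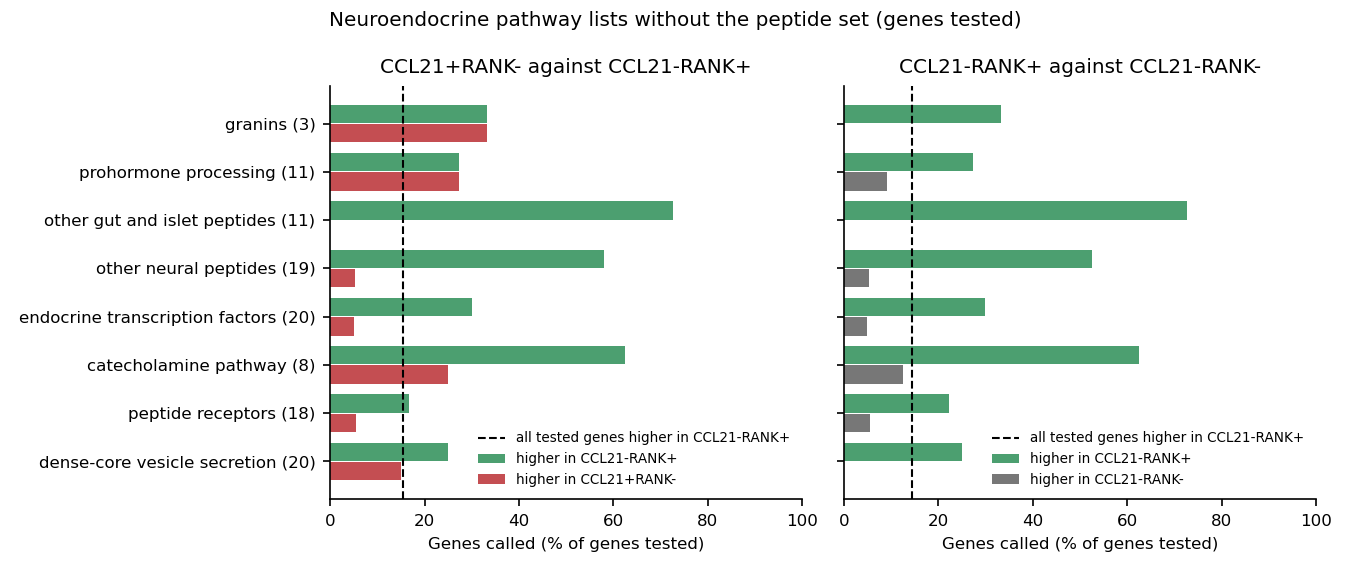
Percent of tested genes of each list called higher in either population (horizontal axis; genes tested in brackets), for CCL21+ against RANK+ TECs on the left and RANK+ against reporter-negative TECs on the right. The dashed lines mark the percent of all tested genes called higher in RANK+ TECs, 15.4% and 14.4%; the gut and islet peptides reach 72.7% in both panels.

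Of 11 tested genes of the gut and islet list, which also holds the serotonin enzyme Tph1, 8 were higher in RANK+ than in CCL21+ TECs (72.7%), namely Gip, Pyy, Nts, Sct, Iapp, Ppy, Gast and Ucn3. In edgeR 0 were lower, as at an unadjusted p under 0.05 and in DESeq2. The same 8 were higher than in reporter-negative TECs. Pyy, the peptide YY gene of gut L cells, was 14.5, 3.32 and 4.11 RPKM in RANK+ TECs, 0 in all CCL21+ libraries and 0.141 and 0.0443 RPKM in reporter-negative TECs. It was at least 81.4-fold above CCL21+ TECs (41.4-fold without replicate 1 of RANK+ TECs) and differed in edgeR's test (adjusted p = 0.00024). Ppy, which encodes pancreatic polypeptide, was 7.26, 0.678 and 2.67 RPKM, and Ucn3, which encodes urocortin 3 of beta cells, was 1.97, 0.229 and 1.22 RPKM in RANK+ TECs (edgeR adjusted p = 0.00297 and 0.00212 against CCL21+ TECs). Ppy stood at least 31.2-fold and Ucn3 at least 29.8-fold above CCL21+ TECs, where both were at 0, or 14.8-fold and 18.9-fold without that replicate. Gip, the incretin of gut K cells, was 6.28, 0.552 and 0.17 RPKM (edgeR adjusted p = 0.0117), so that replicate 1 carried most of its mean. Gip, Gast and Ucn3 were not called without that replicate. Ins2, an insulin gene, was 0.931, 0.152 and 0 RPKM in RANK+ TECs and 0 in all other libraries, below the level needed for a call, and Ins1 was at 0 in every library.

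Of 19 tested neural peptide genes, 11 were higher in RANK+ than in CCL21+ TECs (57.9%) and 1, Penk, was lower. Calcb, described above, had a log2 difference of -9.70 ± 0.65 (SE) for CCL21+ minus RANK+ (edgeR adjusted p = 2.53e-06). Trh, the thyrotropin-releasing hormone gene, was 5.2, 1.76 and 2.01 RPKM in RANK+ TECs and at 0 in all 5 other libraries, at least 73-fold above CCL21+ TECs, or 46.1-fold without replicate 1 (edgeR adjusted p = 0.000209 with all libraries). Tac2, which encodes neurokinin B, was 6.25, 1.16 and 1.6 RPKM, and Crh, the corticotropin-releasing hormone gene, was 2.68, 0.725 and 0.656 RPKM in RANK+ TECs. Neither passed 0.0127 RPKM in another library, and both differed from CCL21+ TECs (edgeR adjusted p = 0.000138 for Tac2 and 0.000582 for Crh). Crh was not called without replicate 1 of RANK+ TECs, where its mean was under 1 RPKM. Penk, the proenkephalin gene, ran the other way, at 30, 26.9 and 29.9 RPKM in CCL21+ TECs and 7.93, 5.15 and 4.98 RPKM in RANK+ TECs (edgeR adjusted p = 3.01e-06). Cort, the paralog of Sst that encodes cortistatin, was at 0 in every library.

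**Figure D4:**
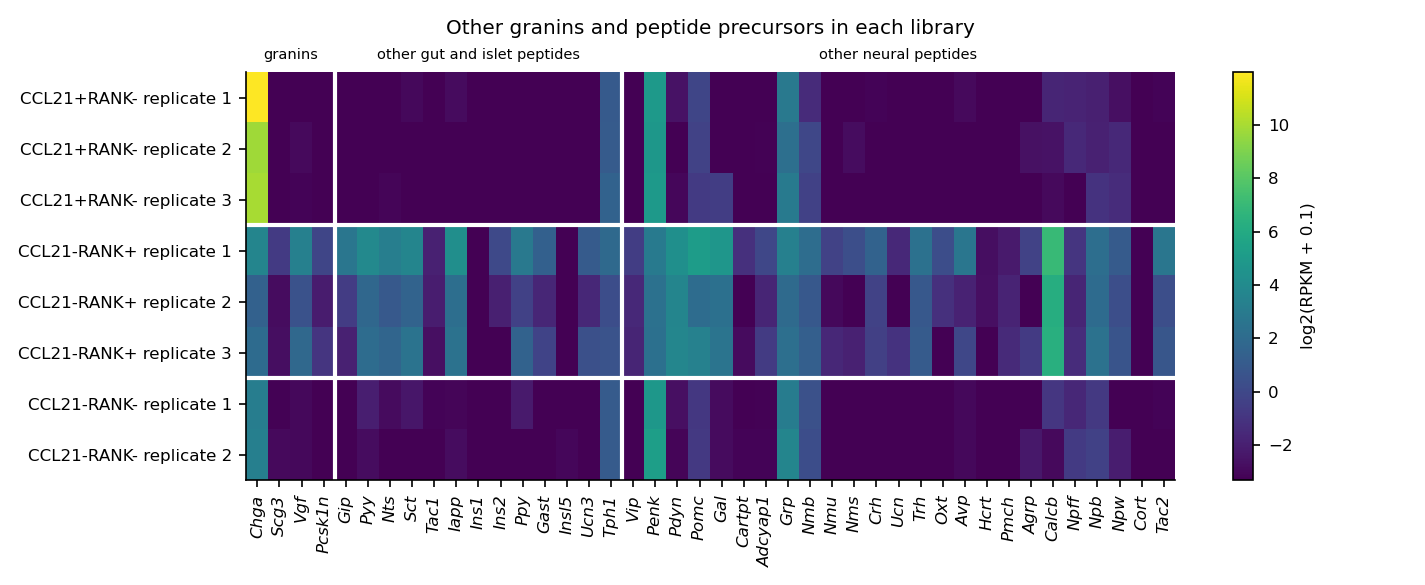
Levels of the 4 other granin genes and of the 38 other genes of the peptide lists (columns) in the 8 libraries (rows), as log2(RPKM + 0.1) by colour. Most columns are dark outside the RANK+ rows and brightest in RANK+ replicate 1, whereas Chga is brightest in CCL21+ TECs and Penk is brighter there and in reporter-negative TECs.

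The granins did not move together. Chga, which encodes chromogranin A, was 4061, 878 and 1020 RPKM in CCL21+ TECs, 12.4, 2.55 and 4.06 RPKM in RANK+ TECs, and 9.05 and 9.7 RPKM in reporter-negative TECs. It was thus highest where Chgb and Scg2 were low, with a log2 difference of 8.44 ± 0.88 (SE) from RANK+ TECs (edgeR adjusted p = 3.48e-05). Vgf, a granin-like precursor of neurons and endocrine cells, was 9.92, 1.35 and 3.45 RPKM in RANK+ TECs and at most 0.0292 RPKM elsewhere (log2 difference -8.35 ± 0.96, edgeR adjusted p = 6.92e-05). Pcsk1n, an inhibitor of the convertase PC1, was 0.812, 0.127 and 0.416 RPKM in RANK+ TECs and 0 elsewhere, and Scg3, which did not pass the filter, was at most 0.504 RPKM.

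Chga moved with the other markers of parathyroid, a gland that arises beside the thymus from the same pharyngeal pouch. All 6 markers of the list (Pth, Gcm2, Casr, Chga, Gata3 and Tbx1) were higher in CCL21+ than in both other populations, against 15.4% and 4.35% of all genes. Their summed level was 7153, 1760 and 1967 RPKM in the CCL21+ libraries, and at most 28.2 RPKM in the others. Chga is 1 of the 6 and gave 4061, 878 and 1020 RPKM of the CCL21+ sums, so it is compared in part with itself. Chga had the highest mean of the list, and Pth was 3001, 848 and 906 RPKM. Scg5, like the summed markers, was highest in replicate 1 (3.62 RPKM against 2.37 and 2), but its replicates 2 and 3 ran in the opposite order. Cck was lowest in replicate 1 (2.16 RPKM against 2.92 and 2.72). Without replicate 1 of CCL21+ TECs, Scg5 and Cck stayed above both reporter-negative libraries. So did the summed markers, at 1760 and 1967 RPKM against 24.6 and 22.3 RPKM. The part of parathyroid cells in the levels of these members was not tested.

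The machinery that matures the peptides gave calls in both directions. Of 11 tested processing genes, 3 were higher in RANK+ TECs (Pam, Pcsk5 and Cpd; 27.3%) and 3 in CCL21+ TECs (Cpe, Qpct and Pcsk6; 27.3%). By adjusted p alone, without the limits on fold and level, 6 were higher in RANK+ TECs (54.5%, against 30.6% of all genes) and the same 3 in CCL21+ TECs, the further genes being Pcsk1, Pcsk2 and Cpz. Pam, the amidating enzyme, was 32, 20.1 and 25.4 RPKM in RANK+ TECs and 9.28, 8.31 and 11.8 RPKM in CCL21+ TECs (log2 difference -1.28 ± 0.15, edgeR adjusted p = 9.63e-05). Cpe, the carboxypeptidase that trims peptides after cleavage, was 14.2, 3.54 and 1.77 RPKM in CCL21+ TECs and 2.01, 0.718 and 0.502 RPKM in RANK+ TECs (edgeR adjusted p = 0.0114, or 0.0539 without replicate 1 of CCL21+ TECs). Qpct, which closes the amino-terminal ring of some peptides, was 2.95, 0.582 and 0.886 RPKM in CCL21+ TECs and at most 0.11 RPKM elsewhere (edgeR adjusted p = 0.000884), and without that library its level no longer passed 1 RPKM. The neuroendocrine convertase genes were low in every library but higher in RANK+ than in CCL21+ TECs. Pcsk1 did not pass 0.181 RPKM (log2 difference -3.65 ± 1.36, edgeR adjusted p = 0.0482), and Pcsk2, whose product Scg5 chaperones, did not pass 0.435 RPKM (log2 difference -3.73 ± 0.65, edgeR adjusted p = 0.000951). Pcsk2 was 0.139 and 0.214 RPKM in reporter-negative TECs, which overlapped RANK+ TECs (0.435, 0.126 and 0.157 RPKM; edgeR adjusted p = 0.718).

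Of 20 tested secretion genes, 5 were higher in RANK+ TECs (Syt7, Syt13, Cadps, Cadps2 and Rims2), or 25% against 15.4% of all genes. In CCL21+ TECs 3 were higher (Rab3d, Rab27a and Sytl4), or 15%, near the 15.4% of all genes. By adjusted p alone the shares were 45% (30.6% of all genes) and 15% (23.1%). Rims2 was not called without replicate 1 of RANK+ TECs (log2 difference -1.22, edgeR adjusted p = 0.027). Syt7, a calcium sensor of granule fusion, was 7.22, 5.06 and 6.05 RPKM in RANK+ TECs and at most 0.0802 RPKM in any other library, a log2 difference of -7.00 ± 0.32 for CCL21+ minus RANK+ (edgeR adjusted p = 4.39e-07). Cadps, which primes dense-core granules, was 5.61, 3.45 and 3.58 RPKM in RANK+ TECs and 0.601, 1.85 and 0.517 RPKM in CCL21+ TECs (edgeR adjusted p = 0.016). That call was lost without replicate 1 or replicate 3 of CCL21+ TECs (edgeR adjusted p = 0.0519 and 0.0513). Syp and Ptprn, a vesicle and a granule membrane protein, were 0.923 ± 0.649 and 0.527 ± 0.232 RPKM (SD, n = 3) in RANK+ TECs, under the level needed for a call.

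Of 20 tested endocrine transcription factors, 6 were higher in RANK+ than in CCL21+ TECs (30%), among them Neurog3, Insm1, Foxa1, Foxa2 and Hnf4g, and 1, Isl1, was lower. By adjusted p alone 15 were higher (75%, against 30.6% of all genes), the further ones having means under 1 RPKM. Without replicate 1 of RANK+ TECs, the mean of Hnf4g was 0.914 RPKM and it was not called, with a log2 difference of -6.71 for CCL21+ minus RANK+ (edgeR adjusted p = 0.000944). Foxa2 was then not called against reporter-negative TECs (log2 difference 3.36, edgeR adjusted p = 0.0659, against 3.74 with all libraries). Insm1, a zinc-finger factor of endocrine differentiation, was 176, 194 and 213 RPKM in RANK+ TECs, 0.589, 0.905 and 0.638 RPKM in CCL21+ TECs, and 1.37 and 0.239 RPKM in reporter-negative TECs (log2 difference -7.98 ± 0.60, edgeR adjusted p = 4.66e-06). Replicate 1 was the lowest RANK+ library for Insm1, opposite to the members. Neurog3, which starts the endocrine fate in gut and pancreas, was 1.24, 1.01 and 2.5 RPKM in RANK+ TECs and at 0 elsewhere, at least 46.8-fold above CCL21+ TECs (edgeR adjusted p = 0.000304). Neurod1, which acts after Neurog3, was 0.812, 0.132 and 0.814 RPKM in RANK+ TECs and at most 0.0614 RPKM elsewhere. Isl1 was 7.52, 6.56 and 8.53 RPKM in CCL21+ TECs and 3.34, 3.49 and 4.15 RPKM in RANK+ TECs (edgeR adjusted p = 5.28e-05).

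Dbh belongs to the catecholamine pathway, in which Th makes L-DOPA, Ddc dopamine, Dbh noradrenaline and Pnmt adrenaline, and monoamine transporters fill the vesicle. Of 8 other genes of the pathway, 5 were higher in RANK+ than in CCL21+ TECs (Ddc, Pnmt, Slc18a1, Slc18a2 and Cyb561; 62.5%) and 2 were lower (Slc6a2 and Gch1; 25%). Th was 1.23, 0.599 and 0.584 RPKM in RANK+ TECs and at most 0.0184 RPKM elsewhere, with a mean below 1 RPKM. Ddc was 6.62, 0.818 and 1.05 RPKM in RANK+ TECs (edgeR adjusted p = 0.0028) and was not called without replicate 1, where its mean was under 1 RPKM. Pnmt was 6.25, 2.95 and 3.04 RPKM in RANK+ TECs, with at most 0.0157 RPKM elsewhere (log2 difference -9.01 ± 0.81, edgeR adjusted p = 2.74e-05). The vesicular transporter gene Slc18a1 was even among replicates, at 12.7, 11 and 12.4 RPKM (log2 difference -5.84 ± 0.42, edgeR adjusted p = 3.85e-06), and Slc18a2 was 2.24, 1.15 and 1.15 RPKM (edgeR adjusted p = 9.63e-06).

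Of 18 tested receptor genes for these peptides, 3 were called higher in RANK+ than in CCL21+ TECs, the somatostatin receptors Sstr2, Sstr3 and Sstr5, and 1, Ramp3, was lower (16.7% and 5.56%). By adjusted p alone 13 were higher (72.2%, against 30.6% of all genes), among them receptors with means under 1 RPKM, the calcitonin receptor gene Calcr (481 counts in RANK+ and 0 in CCL21+ TECs, at least 55.8-fold), Npy2r (at least 27.7-fold, or 15.2-fold without replicate 1 of RANK+ TECs), Cckbr, Gcgr, the ghrelin receptor gene Ghsr and Glp2r. Sstr3 was 3.86, 2.35 and 3.92 RPKM and Sstr5 2.15, 0.803 and 0.873 RPKM in RANK+ TECs, with edgeR adjusted p = 4.3e-05 and 0.000486, and Sstr2 was 1.69, 0.707 and 0.884 RPKM (edgeR adjusted p = 0.00103). Without replicate 1 of RANK+ TECs, Sstr3 was still called and Sstr2 and Sstr5 were not, because their means fell under 1 RPKM. Ramp3, which forms an adrenomedullin receptor with Calcrl, was 26.1, 22.8 and 33.9 RPKM in CCL21+ TECs, 5.38, 6.53 and 4.64 RPKM in RANK+ TECs, and 49.4 and 61.7 RPKM in reporter-negative TECs (edgeR adjusted p = 2.71e-06 between the reporter-positive populations). Ramp1, which forms the CGRP receptor with Calcrl, had a mean of 0.592 ± 0.417 RPKM (SD, n = 3) in RANK+ TECs, and Calcrl was 6.31 ± 0.547 RPKM there. Glp1r and Npy1r did not pass 0.484 and 0.212 RPKM in any library.

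Markers of cell types in which these members are classically expressed, and of other cells a thymus sort could hold, were measured in the same libraries. Leaving out Calca, itself a member, 4 of 5 thyroid C cell markers were higher in RANK+ TECs than in both other populations, against 15.4% and 14.4% of all genes, among them Calcb, Ret and Slc18a2. Calcb and Slc18a2 also stand in the peptide and catecholamine lists above. Nkx2-1, the factor that defines the thyroid lineage, was 0.0246, 0 and 0.28 RPKM in RANK+ TECs and 0.241 RPKM in a single reporter-negative library. Of the sympathetic and chromaffin markers, 2 of 5 tested were higher in RANK+ TECs, Prph and Pnmt, with Prph the most abundant at 8.6 ± 2.93 RPKM (SD, n = 3). Their summed level was 20, 11.3 and 10.4 RPKM in RANK+ TECs and at most 0.335 RPKM elsewhere. Defining sympathetic factors were near 0, with Phox2a at most 0.317 RPKM and Hand2 at most 0.0742 RPKM in any library.

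Some markers of other lineages were also higher in RANK+ TECs. Of 6 markers of thymic epithelium, Epcam was higher in RANK+ than in CCL21+ TECs, and 4 (Foxn1, Psmb11, Krt5 and Krt8) were lower. Of 5 neuronal markers 2 were higher than in CCL21+ TECs and 1 lower, and their sum was 32.9, 23.9 and 25.9 RPKM in RANK+ TECs, led by Syt1 at 21.7 ± 5.72 RPKM (SD, n = 3), and at most 9.67 RPKM in the other libraries. Of 5 mesenchymal markers 3 were higher, with sums of 43.3, 21.3 and 27.3 RPKM against at most 3.05 RPKM elsewhere, led by Col1a1. Of 4 Schwann cell markers 2 were higher, among them Sox10. Of 4 endothelial markers 1, Tek, was higher, and of 4 thyroid follicle markers 1, Tg, was higher. Without replicate 1 of RANK+ TECs, Sox10, Tek and Tg were not called because their means were 0.932, 0.993 and 0.997 RPKM, while the log2 differences for CCL21+ minus RANK+ were -8.35, -2.46 and -3.36 (edgeR adjusted p = 3.95e-05, 0.000644 and 0.000258). Of 6 haematopoietic markers 2 were higher (Lck and Cd4), with sums of 18.4, 8.3 and 14.8 RPKM in RANK+ TECs and 10, 3.95 and 5.52 RPKM in CCL21+ TECs, and Ptprc, which encodes CD45, did not pass 0.576 RPKM. Against reporter-negative TECs, where the sums were 3.18 and 2.73 RPKM, 4 of the 6 were higher in RANK+ TECs (Lck, Rag1, Cd4 and Cd8a; 66.7%, against 14.4% of all genes). Rag1 and Cd8a were not called without reporter-negative replicate 2. Replicate 1 of RANK+ TECs held the highest sum of the neuronal, mesenchymal, Schwann cell, endothelial, thyroid follicle and haematopoietic lists, as it did for the members, but not of the thymic epithelium list, which was 1348, 1471 and 1216 RPKM in RANK+ TECs and higher in all other libraries. The part of such cells in the levels of the members was not tested.

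**Figure D5:**
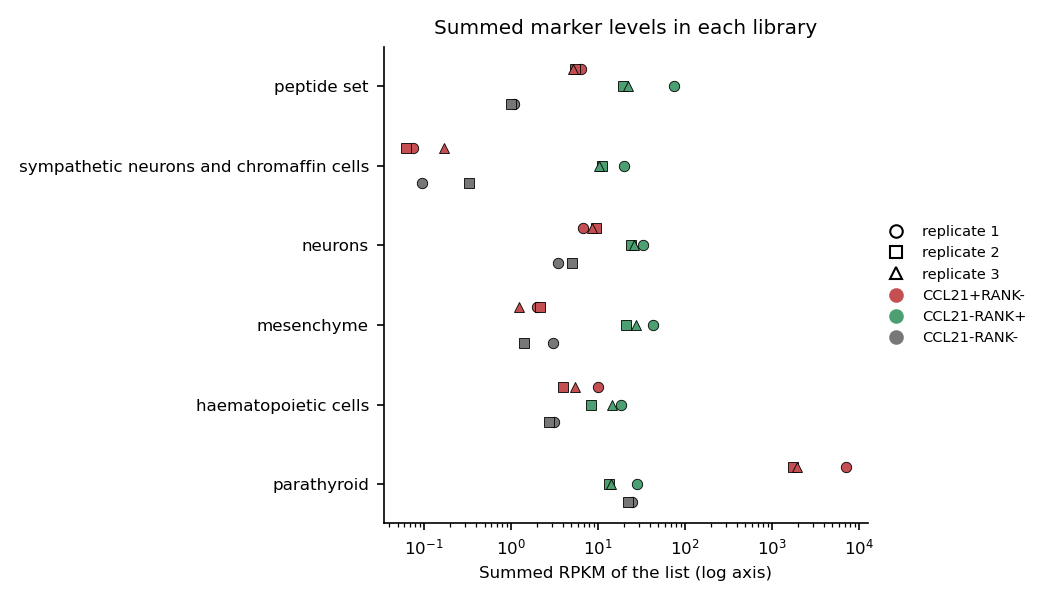
Summed RPKM of the peptide set and of 5 marker lists (horizontal log axis) in the 8 libraries, with colour for the population and symbol for the replicate. Replicate 1 is the highest RANK+ library in each row, and the parathyroid row is led by the CCL21+ libraries at 7153, 1760 and 1967 RPKM.

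Likeness of pattern was measured as the root mean square difference of log2 CPM, after each gene was centred on its own mean over the 8 libraries, among 16298 tested protein-coding genes, leaving out those known only as predicted genes. Smaller values are more alike, and the 8 libraries are shared by all genes. Among the members, the closest pairs were Calca with Dbh (0.363) and Calca with Npy (0.383), and Cck was closest to Scg5 (0.667). Ghrl was far from every other member, at 1.58 or more. Over all genes, those nearest to Dbh were Alpi (0.0362), Apol7c (0.0778) and Bhmt (0.117), and those nearest to Gcg were Csn1s2a (0.2), Car6 (0.22) and A2m (0.26). Sst was nearest to Btnl1 (0.191) and Calca to Cpne6 (0.284). Npy was nearest to Ptprn (0.215), the granule membrane gene described above, and almost as near to Btnl10 (0.216) and Prdm14 (0.226). Shared regulation was not tested. Scg5 was nearest to C3 (0.223), Abcc3 (0.234) and Ccbe1 (0.277), Cck to Cap2 (0.414), Scg2 to Ush1c (0.349), Chgb to Khdc3 (0.354) and Ghrl to Cfap157 (0.662).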

How the data were processed

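RNA of sorted E17 TECs was sequenced, and the authors deposited 1 table of RSEM expected counts for 55450 genes and 8 libraries. The submitters' processing notes name bcl2fastq 2.20, Trimmomatic, STAR 2.5.1, RSEM 1.3.1 and mm10; the annotation is not given in the sources used here. The labels and the published methods name different RNA and library kits, and the methods name different software, so the exact kit and its strand setting remain uncertain. Reads from a gene and its antisense partner may therefore not be separated.

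The deposited expected counts were rounded to whole numbers and analysed with edgeR 4.0.16 in R 4.3.3: low-count filter (filterByExpr, 21451 genes kept), TMM scaling, and quasi-likelihood tests on 3 group means over all 8 libraries, with Benjamini-Hochberg adjustment over all genes tested. A gene was called at adjusted p under 0.05, fold change over 1.5 and mean RPKM over 1 in the higher group. RPKM used the library total and the union exon length of GENCODE M21, where all 55450 gene identifiers matched. The script was tested on simulated data. The study calls its replicates biological; the embryos or litters behind each library are not given in the sources used here, so p-values measure the spread between these libraries.

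The members and the 8 pathway and 10 marker lists were chosen with earlier results of these data known. For members, counts that met the call are printed beside the share of all genes as a description; no p is given, since they were selected on these values. The text names, per list, the up to 4 called genes with the largest change, plus preset key genes; other genes named with a value (Penk, Nkx2-1, Phox2a, Hand2, Ins1, Calcr, Npy2r, Cckbr, Gcgr, Glp2r and Cpz) were singled out after their values were seen. Some genes of the lists are counted but not reported here by name. Likeness used log2 CPM with a prior count of 2. Alternatives were DESeq2 1.42.0 size factors and Wald test, other filters, a replicate block, only the compared libraries, adjusted p alone, totals without Gm26917 and Gm42418, and each library left out.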

Additional observations from a re-analysis of the deposited data

How the results depend on the processing

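Counts were recomputed under 16 alternatives. With adjusted p alone, 11516 genes were called between CCL21+ and RANK+ TECs and 10501 between RANK+ and reporter-negative TECs (6617 and 6332 with all thresholds), and pathway genes higher in RANK+ TECs numbered 76 and 75 in place of 42 and 42, and those higher in reporter-negative than in CCL21+ TECs 5 in place of 3. With at least 10 counts in every library, 42 pathway genes and 2 members could be tested, and 16 and 17 pathway genes were higher in RANK+ TECs. That filter removes any gene with fewer than 10 counts in a library, such as Calca and Scg2, and not only genes at 0 in a population. Under it, members called higher in RANK+ TECs numbered 0 against CCL21+ TECs (6 with the usual filter) and 2 against reporter-negative TECs (8). The other settings that kept all libraries left each of these counts within 1.5 times its value.

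Leaving out each library in turn gave 657 to 2066 genes between CCL21+ and reporter-negative TECs (1720 with all), the low value without reporter-negative replicate 2. Pathway genes higher in CCL21+ than in reporter-negative TECs ran from 4 to 11 (10 with all; 4 without reporter-negative replicate 2, 6 without CCL21+ replicate 1 or reporter-negative replicate 1), and those higher in reporter-negative TECs from 0 to 3 (0 without reporter-negative replicate 2 in edgeR, where 13 had an unadjusted p under 0.05). Leaving out a reporter-negative library leaves 1 in that group, which is then assumed to vary like the others. Members called in either direction numbered 5 to 7 between CCL21+ and RANK+ TECs and 6 to 9 between RANK+ and reporter-negative TECs; those higher in RANK+ than in CCL21+ TECs ran from 4 to 7. DESeq2 size factors shifted the median log2 difference of all genes by 0.14 for RANK+ minus reporter-negative and turned no direction of a gene named as called.

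Replicate numbers were not taken to pair the libraries, since not every same-numbered pair had a correlation of deviations over 0.1. Between CCL21+ and RANK+ TECs it was 0.0485 to 0.126 for the 3 same-numbered pairs and -0.0984 to 0.041 for the 6 others, a hint of shared numbers at most. In the group of 2 the deviations mirror each other, so its pairs give no separate evidence. Members called higher in CCL21+ than in reporter-negative TECs were 2 (Cck and Scg5) in place of 1 under the DESeq2 Wald test, no filter, the 10-count filter, only the libraries compared, the replicate block, and without RANK+ replicate 1 or 3. With the number as a replicate block, 6616, 1913 and 6324 genes and 42 and 42 pathway genes higher in RANK+ TECs were called. The block ended the calls of Foxa2 (RANK+ minus reporter-negative, log2 difference 4.16, edgeR adjusted p = 0.0621) and Pcsk6 (CCL21+ minus reporter-negative, -0.63, edgeR adjusted p = 0.062). Low counts limit Ghrl, and the 0 counts of Gcg, Dbh and Sst allow up to 3 counts a library.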

Other observations

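The replicate ratio of RANK+ TECs, replicate 1 over the mean of replicates 2 and 3, is given here by list. It covers genes with a mean over 1 RPKM, and that mean includes replicate 1, so a high replicate 1 helps a gene to enter. Differences between lists were not tested. Replicate 1 held the highest level in 9 of 9 other gut and islet peptide genes (median ratio 3.82) and in 12 of 13 other neural peptide genes (median 2.32). It did so in 2 of 8 endocrine transcription factors (median 0.931) and 3 of 6 markers of thymic epithelium (median 1.06). In all 12732 genes at this level it was the highest library in 47.5%. The median ratios of dense-core vesicle genes (1.33, with replicate 1 highest in 9 of 10) and of catecholamine pathway genes (1.94, highest in 5 of 5) lay between those of the peptides and of the transcription factors. The median was 3.94 for 2 granin genes, 1.29 for prohormone processing and 1.23 for peptide receptors, and markers of other cells were also above the median of all genes, at 1.92 for parathyroid, 1.83 for haematopoietic cells, 1.53 for mesenchyme and 2.19 for the 1 endothelial gene. These lists were drawn up with earlier results of the same libraries known, and the ratios are a description of 3 libraries.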
